A study of Mus musculus with 2 samples.

Results

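Tumour spots at the 2 ends of a ranking by Car9, Bnip3 and Vegfa were compared in 2 sections of B16.F10 melanoma, a pigmented mouse tumour line grown in mice. Spots with at least 5000 unique molecular identifiers (UMIs, counted molecules) entered if their share of UMIs from the pigment cell genes Dct, Tyrp1, Pmel and Mlana was at or above the median of their section. They were then ranked and selected on the summed CPM (a gene's UMIs scaled to the same total in every spot or pool) of Car9, Bnip3 and Vegfa. The top 15% of each section are called high spots and the bottom 15% low spots. These are 429 high and 429 low spots of 5812 spots in all: 205 and 205 of 1366 gated spots in the KO section, and 224 and 224 of 1493 gated spots in the WT section. The KO tumour grew in a Foxp3-Cre × CK2b-fl/fl mouse (Csnk2bTreg-/-), in which Cre is driven by the regulatory T cell gene Foxp3, and the WT tumour in a Csnk2bfl/fl mouse, which carries the floxed allele without Cre. Both hosts were untreated and 8 to 16 weeks old, and tumours of comparable size were collected at day 15, and 10 µm sections of formalin-fixed, paraffin-embedded tissue were profiled with probe-based Visium CytAssist. The tumour cells themselves are the same line in both hosts. There is 1 section per genotype, and how many animals lie behind each is not stated, so nothing here has a test, and a difference between the sections cannot be told apart from a difference between 2 tumours. Oxygen was not measured. The ranking genes chose the spots, so every difference between high and low spots below is a description.

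Cells short of oxygen stop hydroxylating the HIF alpha proteins, which then accumulate, pair with HIF1B and bind short DNA elements with the core ACGTG or GCGTG. Their targets include glucose transporters and glycolytic enzymes, the angiogenic ligand VEGFA, carbonic anhydrase 9, a cell surface enzyme that helps tumour cells handle acid, the mitophagy receptor BNIP3, and the prolyl hydroxylases that switch HIF off again. In solid tumours these genes are known to be active far from perfused vessels and around necrosis.

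The promoters of the ranking genes are shown, with those of the HIF target and glycolysis list members whose smaller ratio of the 2 sections was highest, because HIF is known to bind the core element marked in them. They are RefSeq windows of 300 bases around the annotated start, GRCm38.p6, 5′ to 3′ on the gene's strand. Capitals mark ACGTG or GCGTG on either strand (CACGT and CACGC are the reverse forms, and CACGTG holds ACGTG on both strands).
Car9 (chr4:43506776-43507075, plus strand): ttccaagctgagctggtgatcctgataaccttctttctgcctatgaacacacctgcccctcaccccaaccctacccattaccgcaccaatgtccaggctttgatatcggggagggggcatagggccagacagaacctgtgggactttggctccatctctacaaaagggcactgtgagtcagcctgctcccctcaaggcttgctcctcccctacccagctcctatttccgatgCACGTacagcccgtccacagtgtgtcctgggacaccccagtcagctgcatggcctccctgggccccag
Bnip3 (chr7:138909457-138909756, minus strand): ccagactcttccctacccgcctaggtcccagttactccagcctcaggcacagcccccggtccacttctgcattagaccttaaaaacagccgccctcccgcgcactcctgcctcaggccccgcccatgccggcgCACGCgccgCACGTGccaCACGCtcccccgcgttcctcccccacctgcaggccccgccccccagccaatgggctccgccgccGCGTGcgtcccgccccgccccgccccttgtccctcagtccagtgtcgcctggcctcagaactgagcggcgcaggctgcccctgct
Vegfa (chr17:46032328-46032627, minus strand): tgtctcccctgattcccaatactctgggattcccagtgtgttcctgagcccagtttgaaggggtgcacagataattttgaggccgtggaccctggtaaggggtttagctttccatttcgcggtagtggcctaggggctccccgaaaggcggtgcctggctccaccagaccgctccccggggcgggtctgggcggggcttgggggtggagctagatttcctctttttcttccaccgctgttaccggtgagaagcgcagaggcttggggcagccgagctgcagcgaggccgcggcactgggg
Ero1l (chr14:45318523-45318822, minus strand): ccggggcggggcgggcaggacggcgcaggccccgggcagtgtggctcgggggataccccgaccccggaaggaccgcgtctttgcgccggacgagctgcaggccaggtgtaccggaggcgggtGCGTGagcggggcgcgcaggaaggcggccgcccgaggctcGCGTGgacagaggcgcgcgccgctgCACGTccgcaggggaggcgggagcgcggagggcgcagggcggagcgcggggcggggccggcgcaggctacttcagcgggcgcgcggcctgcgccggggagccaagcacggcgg
Slc2a1 (chr4:119108495-119108794, plus strand): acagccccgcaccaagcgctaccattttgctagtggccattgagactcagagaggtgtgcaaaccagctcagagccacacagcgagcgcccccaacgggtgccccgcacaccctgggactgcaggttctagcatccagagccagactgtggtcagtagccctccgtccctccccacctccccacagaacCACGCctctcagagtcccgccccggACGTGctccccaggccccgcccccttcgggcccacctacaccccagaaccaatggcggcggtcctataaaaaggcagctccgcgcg
P4ha2 (chr11:54100674-54100973, plus strand): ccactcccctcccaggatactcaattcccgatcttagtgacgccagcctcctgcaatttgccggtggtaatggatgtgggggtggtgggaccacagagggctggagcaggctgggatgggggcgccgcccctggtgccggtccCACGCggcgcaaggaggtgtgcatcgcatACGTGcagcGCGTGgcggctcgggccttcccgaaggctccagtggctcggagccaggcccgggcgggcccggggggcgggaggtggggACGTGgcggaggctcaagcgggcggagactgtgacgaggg

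Car9 has 1 match, its first base 18 bases before the start, Bnip3 has 5 matches and Vegfa has none in the first of its 2 windows. Ero1l (Ero1a in the table) has 3, Slc2a1 has 2 and P4ha2 has 4. Zfp395 met the same rule and is named only. Of 189 windows of genes at least 1.5-fold higher in high spots of both sections, 73.5% held either motif and 42.9% held ACGTG. Of 106 windows of genes lower in both, 57.5% held either and 21.7% held ACGTG. Among all 7695 compared genes with a window the shares were 65.9% and 27.3%, and among all 27025 RefSeq windows they were 43.8% and 19.7%. The 41 windows of HIF target and glycolysis list members held ACGTG in 51.2%. The share of windows holding GCGTG, with or without ACGTG, differed less. It was 56.1% in the shared higher genes, 46.2% in the shared lower genes and 54.1% in the compared genes. A match is a string of letters and not a site shown to be bound.

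The sections differed in where the ranking fell. In the KO section the last high spot had 1945 CPM of Car9, Bnip3 and Vegfa and the first spot outside had 1944 CPM. The last low spot had 241.5 CPM and the first outside had 242.3 CPM. In the WT section the last high spot had 714.2 CPM and the next 712.1 CPM, and the last low spot had 93.8 CPM and the next 94.1 CPM. The gated median was 899.0 CPM in KO and 207.2 CPM in WT, so a KO low spot at its cut held more of the 3 genes than the median WT gated spot. The WT high cut was reached by 798 of 1366 KO gated spots, and the KO high cut by 49 of 1493 WT gated spots. High and low are therefore ranks within a section, and calling the low end oxygenated rests on the rule alone.

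The ranking genes themselves stood as follows. Car9 had 947 CPM in KO high spots and 47.7 CPM in KO low spots, and 672 CPM in WT high spots and 13.4 CPM in WT low spots. Bnip3 had 465.0 and 31.3 CPM in KO high and low spots, and 269.5 and 8.51 CPM in WT high and low spots. Vegfa had 968 and 75.8 CPM in KO high and low spots, and 525.5 and 41.9 CPM in WT high and low spots. Each stayed higher when the spots were ranked on the other 2 genes alone, with log2 ratios of 3.57 (KO) and 4.36 (WT) for Car9, 3.47 and 3.98 for Bnip3, and 3.19 and 2.65 for Vegfa. The gate genes differed little, with log2 ratios from 0.17 for Dct to -0.43 for Mlana in KO and from 0.14 for Dct to -0.14 for Pmel in WT.

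High spots held fewer UMIs than low spots and lay in different places in the 2 tumours. The median was 31532 UMIs in KO high spots against 50276 in KO low spots, and 26535 in WT high spots against 51247 in WT low spots. KO high spots lay deeper, a median of 9 grid steps from the nearest position without tissue or the frame, against 5 steps for KO low spots. WT high spots lay at a median of 1 step, against 4 steps for WT low spots, and 68.3% of WT high spots against 33.5% of WT low spots were within 2 steps of such an edge. Within 2 steps of a gap enclosed by tissue lay 103 of 224 WT high spots (46.0%) and 11 of 224 WT low spots (4.91%), whereas 16 of 205 KO high spots (7.8%) and 15 of 205 KO low spots (7.32%) did. WT high spots were the more clustered class of their section: 58.0% of their gated neighbours were high spots, and 41.1% of the gated neighbours of WT low spots were low. In KO the shares were 31.8% for high spots and 47.7% for low spots. What the enclosed gaps are was not tested. The 2 sections share 2138 barcodes, which come from the same capture grid and do not mark shared cells. Csnk2b, the gene deleted in regulatory T cells of the KO host, had 382.4 and 396.4 CPM in KO high and low spots, and 369.4 and 438.9 CPM in WT high and low spots, and Foxp3 had 1 to 4 UMIs in each pool, so the deletion could not be checked in these spots.

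**Figure D1:**
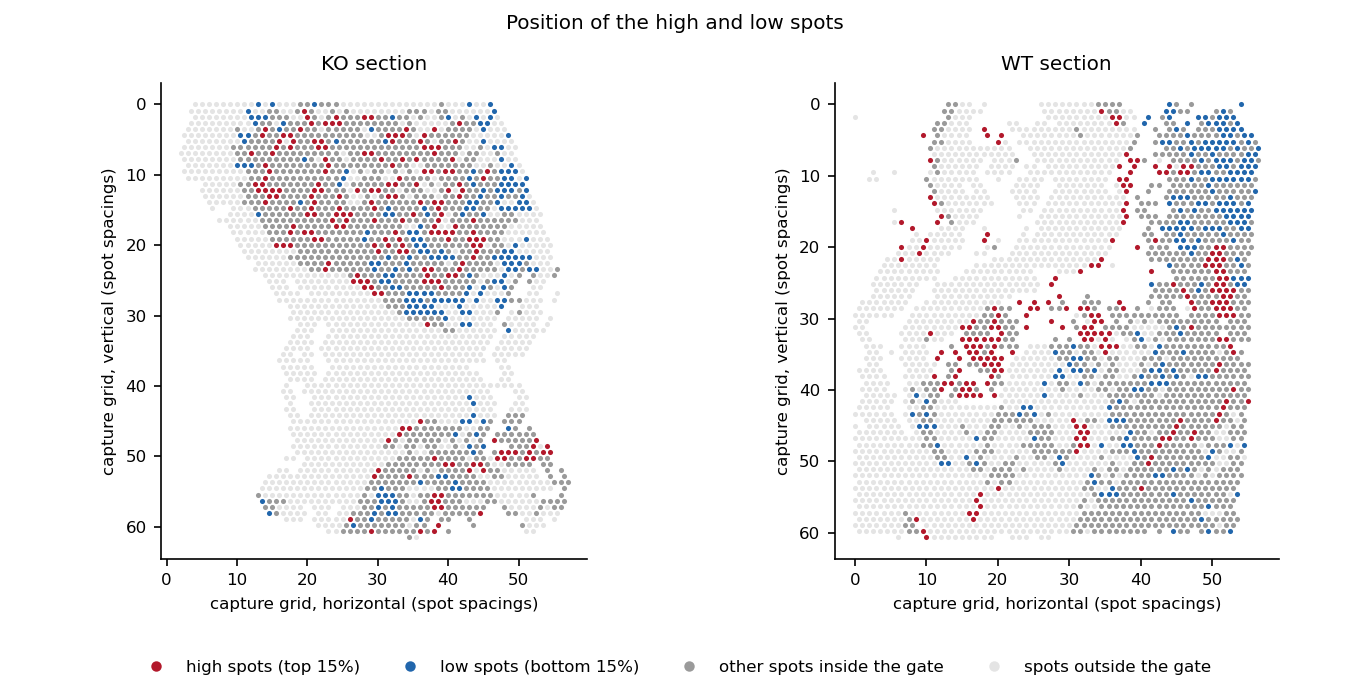
Maps of the KO section (left) and the WT section (right) on the capture grid, axes in spot spacings, with high spots red, low spots blue, other gated spots grey and spots outside the gate light grey. KO high spots lie scattered inside the gated tissue, a median of 9 steps from an edge, and WT high spots lie along edges and gaps, a median of 1 step.

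Across 9438 genes with at least 100 UMIs in the high and low spots of each section, 411 were at least 1.5-fold higher in high spots of the KO section (4.35%) and 619 at least 1.5-fold lower (6.56%). In the WT section 424 were higher (4.49%) and 260 lower (2.75%). Both sections shared 227 higher genes (2.41%), which are 55.2% of the KO list and 53.5% of the WT list. They shared 147 lower genes (1.56%), which are 23.7% of the KO list and 56.5% of the WT list. The log2 ratios of the 2 sections had Pearson's r of 0.596 and Spearman's rho of 0.579 across genes, which are not independent of each other, and 6802 genes went in the same direction. The median log2 ratio of all compared genes was -0.08 in KO and -0.04 in WT. A spot holds several cells, so fewer cells of a type and less RNA per cell cannot be told apart.

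**Figure D2:**
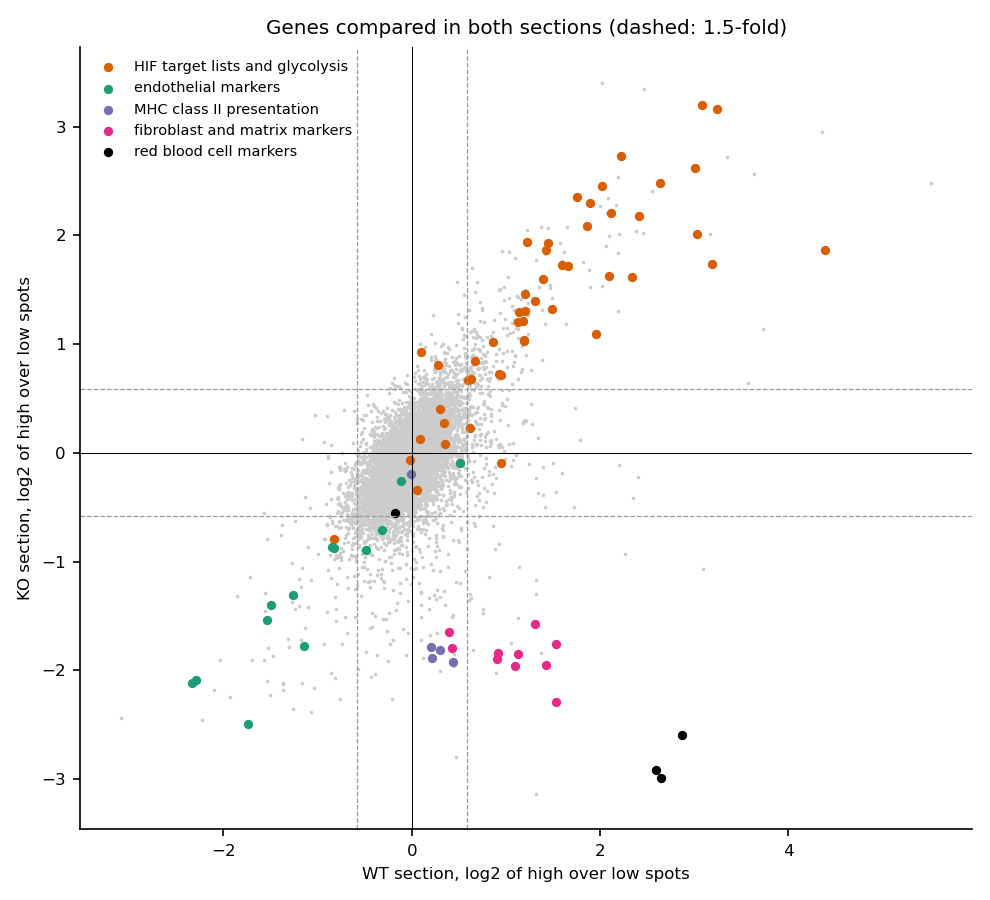
Log2 ratio of high over low spots for 9438 compared genes, WT section on the horizontal and KO section on the vertical axis, dashed lines at 1.5-fold. HIF target and glycolysis genes (orange) lie mostly above 1.5-fold in both sections, endothelial markers (green) mostly below it in both, and fibroblast (pink) and red blood cell genes (black) below in KO and above in WT.

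Most HIF target and glycolysis genes were higher in the high spots of both tumours. Their 5 lists hold 72 genes, of which 67 are in the matrix and 50 had enough UMIs to be compared. Of these 50, 38 were at least 1.5-fold higher in high spots of both sections (76.0%, beside 2.41% of all compared genes) and 1, Efna1, was lower in both. The median log2 ratio was 1.31 in KO and 1.22 in WT, against -0.08 and -0.04 over all compared genes. The 3 ranking genes are not among the 50. They are known targets of the pathway that the ranking genes belong to, so the count is a description.

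Oxygen sensors and feedback genes were higher in 9 of 12 compared genes. Egln1 encodes PHD2, the main prolyl hydroxylase that marks HIF alpha for destruction. It had 377 CPM in KO high spots and 81.4 CPM in KO low spots, and 293.9 CPM in WT high spots and 67.6 CPM in WT low spots. That is 4.63-fold in KO (95% interval 4.28 to 5.01) and 4.35-fold in WT (4.0 to 4.73), where intervals here and below cover counting error only. The counting intervals of the 2 sections overlap, and the ratio was above 1.5-fold in all 3 measured quadrants of each section. The WT quadrant not measured held 65 of 224 high spots and 1 of 224 low spots. The KO quadrant not measured held 7 of 205 high spots and 14 of 205 low spots. Quadrant ranges here and below leave these spots out, while the pooled ratios include them. Egln3, a second prolyl hydroxylase, had 11.1 and 3.02 CPM in KO high and low spots, and 16.8 and 0.766 CPM in WT high and low spots. The WT low level is near that of genes of other organs (0.676 CPM a gene over 16 genes), and its WT ratio (interval 11.1 to 49.3) rests on 9 UMIs in the low spots.

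Hilpda, which coats lipid droplets and blocks lipolysis, had 99.6 and 15.0 CPM in KO high and low spots, and 49.8 and 10.6 CPM in WT high and low spots. Bhlhe40, a clock-linked repressor, had 1488 and 387.9 CPM in KO high and low spots, and 485.6 and 208.3 CPM in WT high and low spots. Its paralogue Bhlhe41 was 1.91-fold higher in KO but 1.07-fold in WT. Zfp395, a zinc finger gene, was among the most strongly shared, with 20.4 and 2.24 CPM in KO high and low spots and 14.0 and 1.45 CPM in WT high and low spots. Ankrd37 was 4.54-fold higher in KO and 5.38-fold in WT. The histone demethylases Kdm3a and Kdm4b, which need oxygen as a substrate, were 2.32-fold and 2.64-fold higher in KO and 2.27-fold and 2.48-fold in WT, while Kdm4c was 1.75-fold and 1.21-fold. Insig2, a sterol sensor partner, was 1.6-fold and 1.55-fold higher. Cited2, which competes with HIF for its coactivator, was 1.33-fold and 1.23-fold higher, below the 1.5-fold line.

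Of 5 compared genes for acid export and mitochondrial clearance, 3 were higher in both sections. Slc16a3 encodes the lactate exporter MCT4. It had 196.5 CPM in KO high spots and 59.0 CPM in KO low spots, and 206.8 CPM in WT high spots and 22.6 CPM in WT low spots. The high spots of both sections were alike and the low spots differed, so the ratio was 3.33-fold in KO and 9.14-fold in WT. Bnip3l (NIX), a second mitophagy receptor, was 3.31-fold higher in KO and 3.01-fold in WT. Fam162a, a mitochondrial protein induced by HIF, was 4.26-fold and 3.62-fold higher. Fundc1, another mitophagy receptor, had ratios of 0.955 in KO and 0.986 in WT. Ndufa4l2, which lowers complex I activity, was 1.93-fold higher in WT and had a ratio of 0.935 in KO. Car12, Cox4i2 and Slc4a4 had too few UMIs to be compared.

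Of the secreted and signalling genes 6 of 13 were compared, and 4 were higher in both sections. Ddit4 (REDD1), an mTORC1 inhibitor, had 334.9 and 65.5 CPM in KO high and low spots, and 197.5 and 58.6 CPM in WT high and low spots. Ndrg1, a stress gene, was 3.82-fold higher in KO and 2.74-fold in WT. Adm, the vasodilator peptide adrenomedullin, was 3.08-fold and 5.08-fold higher, and the cytokine Mif 1.6-fold and 1.51-fold. Efna1, a membrane ligand of Eph receptors, went the other way at 1.75-fold lower in KO and 1.78-fold lower in WT, but its KO quadrants ranged from -1.74 to 0.26 on the log2 scale. Apln, an endothelial tip-cell ligand, had ratios of 0.937 in KO and 1.43 in WT. Pgf, a VEGF family ligand, missed the UMI minimum, with 11.9 and 2.34 CPM in KO high and low spots and 12.1 and 1.53 CPM in WT high and low spots.

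The list of collagen and matrix enzymes, which also holds Ero1l and Pam, had 6 of 7 compared genes higher in both sections. Ero1l, the oxidase that feeds disulfide formation in the endoplasmic reticulum, had 599 CPM in KO high spots and 65.3 CPM in KO low spots, and 358.5 CPM in WT high spots and 42.4 CPM in WT low spots. The ratios of 9.17-fold in KO (8.44 to 9.96) and 8.46-fold in WT (7.67 to 9.34) have overlapping counting intervals. P4ha2, a collagen prolyl hydroxylase, was 5.58-fold higher in KO and 6.21-fold in WT, and its partner isoform P4ha1 2.50-fold and 2.80-fold. The lysyl hydroxylases Plod1 and Plod2 were 1.64-fold and 2.76-fold higher in KO and 1.93-fold and 2.30-fold in WT. Loxl2, a lysyl oxidase, was 2.13-fold and 3.89-fold higher. Pam, which amidates peptides, had ratios of 1.06 and 1.28. Lox had too few UMIs in KO (1.08 and 1.27 CPM in high and low spots) and stood at 33.6 and 3.15 CPM in WT high and low spots.

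Glycolysis had 16 of 20 compared members higher in both sections and medians of 1.25 in KO and 1.19 in WT. Its summed level was 20890 CPM in KO high spots and 9236 CPM in KO low spots, and 16940 CPM in WT high spots and 7177 CPM in WT low spots. At the entry, the glucose transporter Slc2a1 (GLUT1) had 644 and 104.9 CPM in KO high and low spots, and 634 and 78.8 CPM in WT high and low spots. Slc2a3 (GLUT3) did not follow, with ratios of 0.786 in KO and 1.04 in WT. Hexokinase Hk2 was 5.48-fold higher in KO and 4.06-fold in WT, and Hk1 2.02-fold and 1.81-fold. Of the phosphofructokinases, Pfkl was 3.09-fold and 4.28-fold and Pfkp 3.29-fold and 3.16-fold higher, whereas the muscle form Pfkm was 1.21-fold and 1.27-fold.

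Aldoa, Gpi1, Pgk1, Pgam1, Pkm, Aldoc and Eno2 were higher by smaller folds than Slc2a1, Hk2, Pfkl and Pfkp in each section. Aldoa had 5730 and 2813 CPM in KO high and low spots, and 4081 and 1788 CPM in WT high and low spots. Gpi1, Pgk1, Pgam1 and Pkm were 2.47-fold, 2.05-fold, 1.65-fold and 2.30-fold higher in KO, and 2.31-fold, 2.28-fold, 1.91-fold and 2.19-fold in WT. Aldoc and Eno2 were 3.02-fold and 2.46-fold higher in KO and 2.62-fold and 2.21-fold in WT. Pdk1, the kinase that closes the mitochondrial entry of pyruvate, was 4.03-fold higher in KO and 8.19-fold in WT, and Pdk3 1.79-fold and 1.59-fold. The glycogen genes Gys1 (glycogen synthase) and Gbe1 (branching enzyme) were 4.91-fold and 3.64-fold higher in KO and 3.72-fold and 2.68-fold in WT. The monocarboxylate carrier Slc16a1 (MCT1) stayed near 1, at 1.09 and 1.06, and Pfkfb3, a regulator of phosphofructokinase, had ratios of 1.17 in KO and 1.53 in WT. Gapdh was counted at 2.38 to 7.10 CPM in these pools, too few to be compared.

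**Figure D3:**
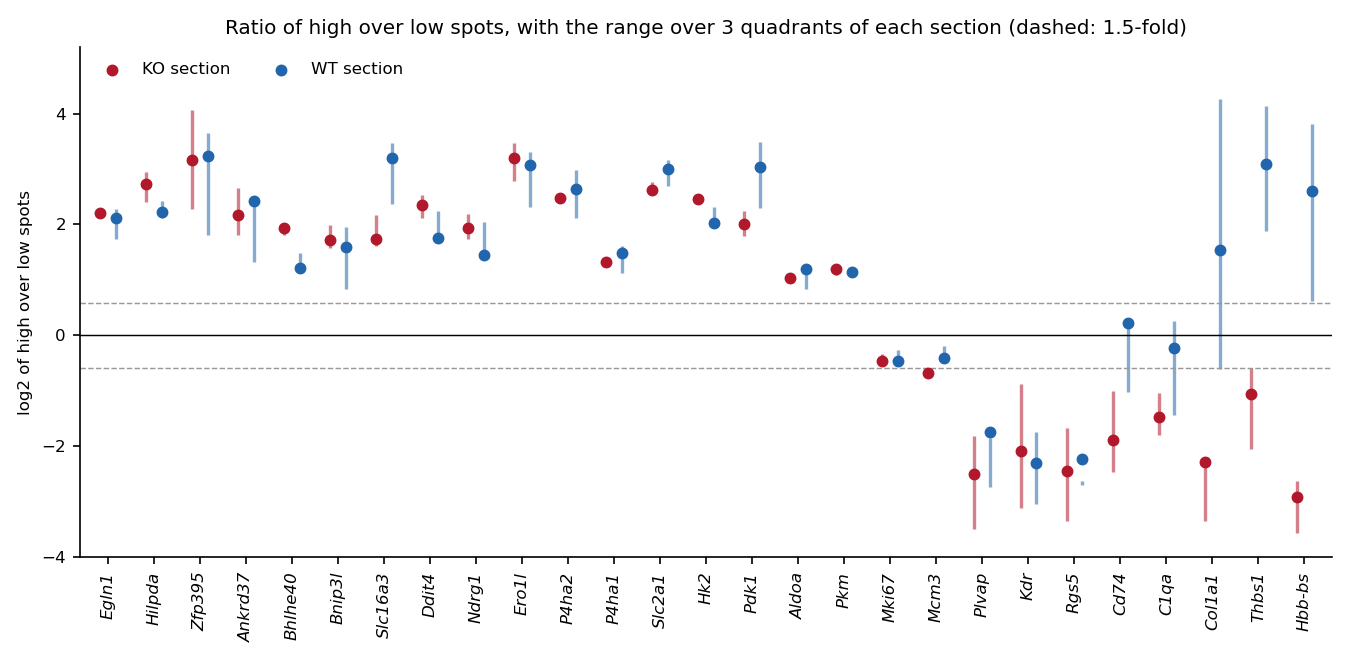
Log2 ratio of high over low spots for 27 named genes in the KO section (red, left of each pair) and the WT section (blue), with bars for the range over the 3 quadrants of each section that held enough spots. Egln1, Slc2a1, P4ha1, Aldoa and Pkm have narrow bars in KO, and Col1a1, Thbs1 and Hbb-bs are negative in KO and positive in WT, with Col1a1 crossing 0 among WT quadrants. A point may lie outside its bar because the fourth quadrant and the differences between quadrants also enter it.

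For oxidative metabolism, none of 20 citric acid cycle genes and none of 29 respiratory chain genes passed 1.5-fold in either section. Their medians were -0.20 and -0.11 in KO and -0.16 and -0.17 in WT, against -0.08 and -0.04 over all compared genes. Log2 ratios were below 0 in 17 of 20 citric acid cycle genes in KO and in 18 of 20 in WT. Of 29 respiratory chain genes 24 were below 0 in each section. The medians over all compared genes are also below 0, so that is the commoner side among all genes too. With between 2.75% and 6.56% of all genes past 1.5-fold in a given section and direction, counts of 0 in lists of this size are near the background. Sdhb, a subunit of succinate dehydrogenase, had 1081 and 1477 CPM in KO high and low spots and 934 and 1199 CPM in WT high and low spots. Idh2 had ratios of 0.778 in KO and 0.735 in WT, Ndufs8 of complex I 0.749 and 0.744, and Atp5b of ATP synthase 0.879 and 0.879. Cox5b and Cox6a1 stayed near 1, at 1.03 and 1.11 in KO and 0.954 and 0.975 in WT.

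Genes outside the HIF lists were also shared. By the smaller of its 2 log2 ratios, the leading genes outside the lists included Tnfrsf9 (4-1BB, a costimulatory receptor known from T cells), Ccn1 (a matricellular YAP target), Aire (a thymic transcription regulator), Espn (an actin bundler) and Selenbp1 (a selenium-binding enzyme). Tnfrsf9 had 60.1 and 9.06 CPM in KO high and low spots, and 34.1 and 3.32 CPM in WT high and low spots. Aire had 226 and 40.5 CPM in KO high and low spots, and 126.7 and 2.72 CPM in WT high and low spots. Across 10 equal bins of the ranking Aire climbed at each of 9 steps in both sections, to 229.8 CPM in the top KO bin and 144.2 CPM in the top WT bin. T cell markers summed to 91.4 CPM in KO high spots and 193.9 CPM in KO low spots, and to 64.2 CPM in WT high spots and 61.8 CPM in WT low spots. Of 23 T cell markers only Ccl5 reached the UMI minimum, and it made up 61.1 and 110.5 CPM of the KO sums and 48.4 and 42.9 CPM of the WT sums in high and low spots. The part of T cells in the Tnfrsf9 ratio was not tested.

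Espn was 10.2-fold higher in KO and 5.52-fold in WT, Selenbp1 10.7-fold and 4.08-fold, and Ccn1 5.93-fold and 12.4-fold. Hyal1 (a hyaluronidase), Epm2a (laforin, a glycogen phosphatase) and Amhr2 (a TGF beta family receptor) were 4.89-fold, 5.85-fold and 4.64-fold higher in KO and 4.51-fold, 4.59-fold and 4.24-fold in WT. Acute stress genes were part of the shared group: 8 of 14 immediate early and heat shock genes were higher in both. The anti-apoptotic gene Ier3 had 248.9 and 49.1 CPM in KO high and low spots, and 196.1 and 46.2 CPM in WT high and low spots. Hspa1b (an HSP70) was 4.12-fold and 5.24-fold higher and the transcription factor Maff 5.32-fold and 5.87-fold.

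The integrated stress response, which translates ATF4 when amino acids or oxygen are short, was higher in 10 of 23 genes in both sections, with medians of 0.73 in KO and 0.48 in WT. Ppp1r15a (GADD34), its feedback phosphatase subunit, had 72.7 and 17.1 CPM in KO high and low spots, and 84.5 and 27.0 CPM in WT high and low spots. Atf3 was 4.09-fold and 5.52-fold higher. Atf4 itself was 1.99-fold higher in KO and 1.39-fold in WT, and the amino acid carrier subunits Slc7a5 and Slc3a2 were 1.09-fold and 1.44-fold higher in KO and 1.21-fold and 1.44-fold in WT. Of 16 unfolded protein response genes 1 was higher and 3 lower in KO, and none passed 1.5-fold in WT. Over all compared genes 4.35% were higher and 6.56% lower in KO, and 4.49% and 2.75% in WT. The medians of the list were -0.36 in KO and -0.15 in WT, with 13 and 12 of the 16 log2 ratios below 0. Those over all compared genes, -0.08 and -0.04, were also below 0. Hspa5 (BiP) had ratios of 0.759 in KO and 0.907 in WT, Hsp90b1 0.982 and 0.923, and Creld2 0.583 and 0.685, while Herpud1 was 1.69-fold in KO and 1.05-fold in WT.

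Of 17 oxidative stress genes 2 were higher in both sections, Hmox1 and Gclc, and the metallothioneins Mt1 and Mt2 passed 1.5-fold in KO only. Mt1 had 3950 and 2252 CPM in KO high and low spots, and 3358 and 2601 CPM in WT high and low spots. Mt2 had ratios of 2.12 in KO and 1.47 in WT. Hmox1, which degrades haem, was 2.91-fold higher in KO and 4.07-fold in WT. Red blood cell genes, given below, were lower in KO high spots and higher in WT high spots. Hmox1 had log2 ratios from 1.37 to 1.66 among KO quadrants and from -0.25 to 2.96 among WT quadrants. Txnip, a glucose-responsive inhibitor of glucose uptake, was 2.37-fold lower in KO and 1.23-fold lower in WT.

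Proliferation genes were lower, by modest folds. All 18 S phase genes compared had ratios below 1 in both sections, 12 of them past 1.5-fold in KO and 2 in WT. Their medians were -0.62 in KO and -0.47 in WT. Mcm3, a subunit of the replicative helicase, had 308.0 and 494.5 CPM in KO high and low spots, and 358.3 and 477.1 CPM in WT high and low spots. Mki67 had 499 and 686 CPM in KO high and low spots, and 390.4 and 538 CPM in WT high and low spots. Of 20 G2 and M phase genes 3 were lower in both, among them the mitotic kinase Plk1, at 1.77-fold lower in KO and 1.6-fold lower in WT. The replication-dependent histone genes Hist1h3b and Hist1h3d were 4.3-fold and 4.41-fold lower in KO, and 2.92-fold and 2.61-fold lower in WT. Cdkn1a (p21), a cyclin-dependent kinase inhibitor, was 1.79-fold and 1.95-fold higher and Gadd45a 2.28-fold and 2.21-fold, while the inhibitor Cdkn2c (p18) was 1.62-fold and 1.71-fold lower.

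Pigment cell genes outside the gate changed little. The 16 compared members had medians of -0.04 in KO and -0.17 in WT, against -0.08 and -0.04 over all compared genes. Log2 ratios were below 0 in 9 members in KO and 13 in WT. Ednrb alone passed 1.5-fold, lower in KO, where 6.56% of all compared genes were lower. Tyr had ratios of 1.08 and 0.993, and Gpnmb, the highest member in WT, 1.05 and 1.19. The melanocytic share of UMIs was 5.02% in KO high spots and 4.6% in KO low spots, and 4.70% in WT high spots and 4.39% in WT low spots. Of 18 dedifferentiated and invasive melanoma genes 2 were higher and 4 lower in KO, with a median of -0.20. In WT 7 were higher and 1 lower, with a median of 0.38. Over all compared genes 4.35% were higher and 6.56% lower in KO, and 4.49% and 2.75% in WT. The WT median was 0.08 among spots more than 2 steps from an edge. It was 0.12 with high and low spots taken within each quadrant, and the KO median was 0.395 without the pigment cell gate. Tnc, the highest member in WT, is described with the matrix genes below. Vimentin (Vim), one of them, had ratios of 1.03 and 1.01.

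Endothelial genes led the shared lower group. Of 13 compared endothelial markers 9 were at least 1.5-fold lower in both sections, with medians of -1.31 in KO and -1.15 in WT. The summed level of 19 markers was 423 CPM in KO high spots and 747 CPM in KO low spots, and 444 CPM in WT high spots and 667 CPM in WT low spots. Plvap, which forms the diaphragms of fenestrated capillaries, had 14.8 and 84.0 CPM in KO high and low spots, and 21.1 and 70.5 CPM in WT high and low spots. Kdr (VEGFR2), the main receptor for VEGFA, had 6.33 and 27.3 CPM in KO high and low spots, and 4.44 and 22.1 CPM in WT high and low spots. The receptor was lower in the spots chosen for a high level of its ligand. Across the 10 bins Kdr went from 29.3 CPM in the lowest KO bin to 6.53 CPM in the highest, and from 22.3 to 3.81 CPM in WT.

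Cd300lg, Emcn, Ptprb and Cdh5, all genes of the endothelial surface or junction, were 5.53-fold, 4.41-fold, 4.84-fold and 2.63-fold lower in KO, and 8.94-fold, 5.21-fold, 3.88-fold and 2.83-fold lower in WT. Epas1, which encodes HIF2 alpha and is abundant in endothelium, was 4.6-fold lower in KO and 4.34-fold lower in WT. Of 9 compared pericyte and smooth muscle genes 6 were lower in KO, and 4 were lower and 2 higher in WT, with 3 lower in both. The pericyte genes Rgs5 and Notch3 were 5.53-fold and 2.79-fold lower in KO and 4.71-fold and 3.02-fold lower in WT. Mgp, Id3 and Nrarp, a Notch target, were 4.41-fold, 3.81-fold and 3.73-fold lower in KO and 2.60-fold, 3.03-fold and 2.81-fold lower in WT. The co-receptor Eng did not follow, with ratios of 0.836 and 0.922. The endothelial median was -0.29 among KO rim spots (31 high and 31 low) and -1.40 among KO interior spots, and in WT it was -1.29 at the rim and -0.89 in the interior. With ends taken within 5 bins of depth the medians were -0.98 in KO and -0.82 in WT.

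**Figure D4:**
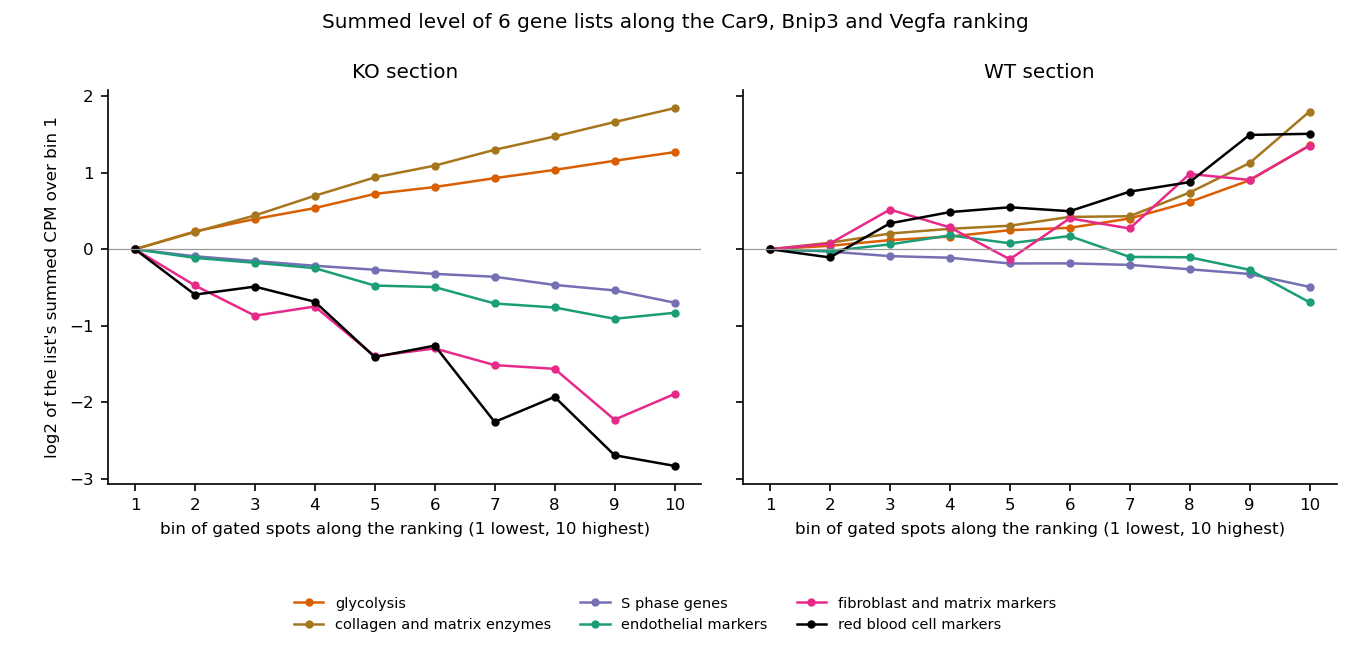
Summed CPM of 6 gene lists in 10 equal bins of gated spots along the ranking, as log2 over the lowest bin, KO section left and WT section right. Glycolysis climbs at each of 9 steps in both sections, from 8863 to 21330 CPM in KO and from 7136 to 18260 CPM in WT, but in WT mostly over the last 3 bins, and the red blood cell and fibroblast lists end lower than they start in KO and higher in WT.

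The shape along the ranking differed. In KO the glycolysis sum went up by similar amounts at each bin, with 14620 CPM in bin 5. In WT it had reached 8480 CPM in bin 5 and 10950 CPM in bin 8, and then 13310 and 18260 CPM in bins 9 and 10. Endothelial markers in WT stood between 608 and 742 CPM over the lowest 8 bins and at 543 and 405 CPM in the top 2. In KO they went from 739 CPM in the lowest bin to 393.9 CPM in bin 9 and 416 CPM in bin 10. S phase genes went down at every step in KO, to 1911 CPM in the top bin, against 3098 CPM in the lowest. The median depth also went down along the bins, from 50000 to 30300 UMIs in KO and from 49150 to 26410 UMIs in WT.

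Genes past 1.5-fold in one section and within 1.2-fold in the other were counted as special to a section. There were 252 for KO (2.67%), 60 higher and 192 lower, and 112 for WT (1.19%), 79 higher and 33 lower. Of 13 interferon gamma response genes 11 were lower in KO, and 2 were lower and 1 higher in WT, with medians of -1.26 and -0.26. The chemokine Cxcl10 had 100 and 227.8 CPM in KO high and low spots, and 260.1 and 318.9 CPM in WT high and low spots. Of 14 MHC class I genes 9 were lower in KO and 2 in WT. Psmb9, an immunoproteasome subunit, was 4.11-fold lower in KO and 1.83-fold lower in WT, and B2m had ratios of 0.802 and 1.15.

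Among gated spots, MHC class II and macrophage genes were lower in KO high spots and near level in WT. Cd74, the invariant chain, had 37.2 and 138.0 CPM in KO high and low spots, and 91.5 and 78.9 CPM in WT high and low spots. Of 5 class II genes 4 were lower in KO, with a median of -1.81, against none in WT and 0.21. Of 11 macrophage genes 8 were lower in KO and none in WT, with medians of -1.14 and -0.06. The complement gene C1qa had 41.8 and 116.2 CPM in KO high and low spots, and 84.4 and 99.5 CPM in WT high and low spots. Cd68, a lysosomal macrophage marker, had a ratio of 0.821 in KO and was 1.80-fold higher in WT, while Apoe had 0.960 and 0.904. Ccl5 was 1.81-fold lower in KO, with a ratio of 1.13 in WT.

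Immune genes varied by place in both sections. The log2 ratio of Cd74 ranged from -2.47 to -1.01 over KO quadrants and from -1.02 to 0.20 over WT quadrants. With high and low spots taken within each quadrant, the medians of interferon gamma, class I and macrophage genes were -1.07, -0.81 and -0.81 in KO and -0.58, -0.41 and -0.43 in WT. Those of class II genes were -1.60 in KO and -0.14 in WT. Without the pigment cell gate the medians of interferon gamma, class II and macrophage genes were -1.88, -3.22 and -1.88 in KO and -0.89, -1.24 and -1.19 in WT, so the near level WT values hold for gated spots. The difference between the sections was not tested. Of the 192 genes lower in KO alone, 87 met the same definition with ends taken within quadrants. It held for 94 among interior spots, 83 within depth bins, 56 with the same CPM cuts in both sections and 38 without the gate. Those still meeting the UMI minimum numbered 187, 155, 189, 166 and 192.

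Some genes were past 1.5-fold in 1 section and either within 1.2-fold or in the opposite direction in the other. By the size of the difference between the log2 ratios the leading genes included Arrdc3, an alpha-arrestin, with 125.1 and 62.3 CPM in KO high and low spots, and 67.7 and 63.6 CPM in WT high and low spots. Sp140 was 2.14-fold higher in KO and 1.15-fold in WT. Cep72, Pank1 and Mecom were 2.06-fold, 2.27-fold and 1.82-fold lower in WT, with KO ratios of 1.27, 1.09 and 1.05. Ybx1 had a KO ratio of 1.30 and was 1.54-fold lower in WT. Cep72 and Ybx1 exceeded 1.2-fold in KO, so they are not among the genes counted as special to a section. Sp140, Ybx1 and Cep72 were each below 15 CPM in every pool. The WT ratios of Cep72, Ybx1 and Mecom turned sign in spots thinned to 5000 UMIs. Of the 60 genes higher in KO alone, 25 met the definition with ends taken within quadrants, and 27 of the 79 higher in WT alone. Without the gate 13 and 5 did.

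In 33 genes (0.35%) the sections went past 1.5-fold in opposite directions, all lower in KO high spots and higher in WT high spots. Those described here are genes known from red blood cells or from matrix and stroma, and which cells made their transcripts was not tested. Tnc is also on the dedifferentiated and invasive melanoma list. Hbb-bs, an adult beta globin, had 181.1 CPM in KO high spots and 1367 CPM in KO low spots, against 244.0 CPM in WT high spots and 40.3 CPM in WT low spots. Hba-a2, an alpha globin, had 85.1 and 514 CPM in KO high and low spots, and 152.4 and 20.8 CPM in WT high and low spots. For both genes the low spots of the 2 sections differed far more than the high spots did. Bpgm, a red cell enzyme that is also made elsewhere, was 1.47-fold lower in KO and 1.13-fold lower in WT.

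Matrix and stromal marker genes split the same way. Col1a1 had 23.5 and 114.9 CPM in KO high and low spots, and 714 and 246.1 CPM in WT high and low spots. Of 10 compared fibroblast and matrix markers all 10 were lower in KO and 8 were higher in WT, with medians of -1.85 and 1.12. Thbs1, a matricellular protein that restrains vessels, had 17.4 and 36.6 CPM in KO high and low spots, and 164.2 and 19.1 CPM in WT high and low spots. Tagln, a smooth muscle and myofibroblast gene, was 9.04-fold lower in KO and 2.50-fold higher in WT, and Acta2 7.09-fold lower and 1.38-fold higher. Col1a2, Col3a1, Col5a2, Bgn and Tnc followed, with KO ratios of 0.295, 0.276, 0.256, 0.278 and 0.519 and WT ratios of 2.89, 2.19, 2.68, 2.58 and 4.83. The secreted matrix protein gene Sparc had a ratio of 0.739 in KO and was 1.64-fold higher in WT.

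These opposite genes moved with position in the WT section. WT high spots lay mostly at the rim, and among interior spots the WT medians were 0.45 for fibroblast and 0.85 for red blood cell genes, against 2.03 and 3.92 among rim spots. With ends taken within quadrants they were 0.06 and 1.64, and the KO medians -1.65 and -2.90. Of the 33 opposite genes 8 stayed so among interior spots, where 23 still met the UMI minimum. All 33 met it within depth bins, within quadrants and without the pigment cell gate, where 7, 4 and 1 stayed. With the same CPM cuts 23 met it and 21 stayed. Without the pigment cell gate the WT medians turned to -0.06 and -0.56. The part that rim, stroma or blood have in these ratios was not tested.

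The shared genes were recounted under the same choices. Of the 227 shared higher genes 187 stayed higher in both sections with ends taken within quadrants, 161 among interior spots and 150 within depth bins. With the same CPM cuts 202 did, and 169 when 1 random split of the UMIs ranked the spots and the other measured them. Those still meeting the UMI minimum numbered 226, 209, 226, 225 and 195. Of the 147 shared lower genes the counts were 102, 66, 62, 98 and 57, of 147, 124, 145, 126 and 107 that still met the UMI minimum. Glycolysis kept medians of 1.25 and 0.96 among interior spots and of 1.09 and 0.93 within depth bins, where high and low spots had nearly equal depth (medians of 42939 and 42641 UMIs in KO, and 35879 and 36911 in WT).

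**Figure D5:**
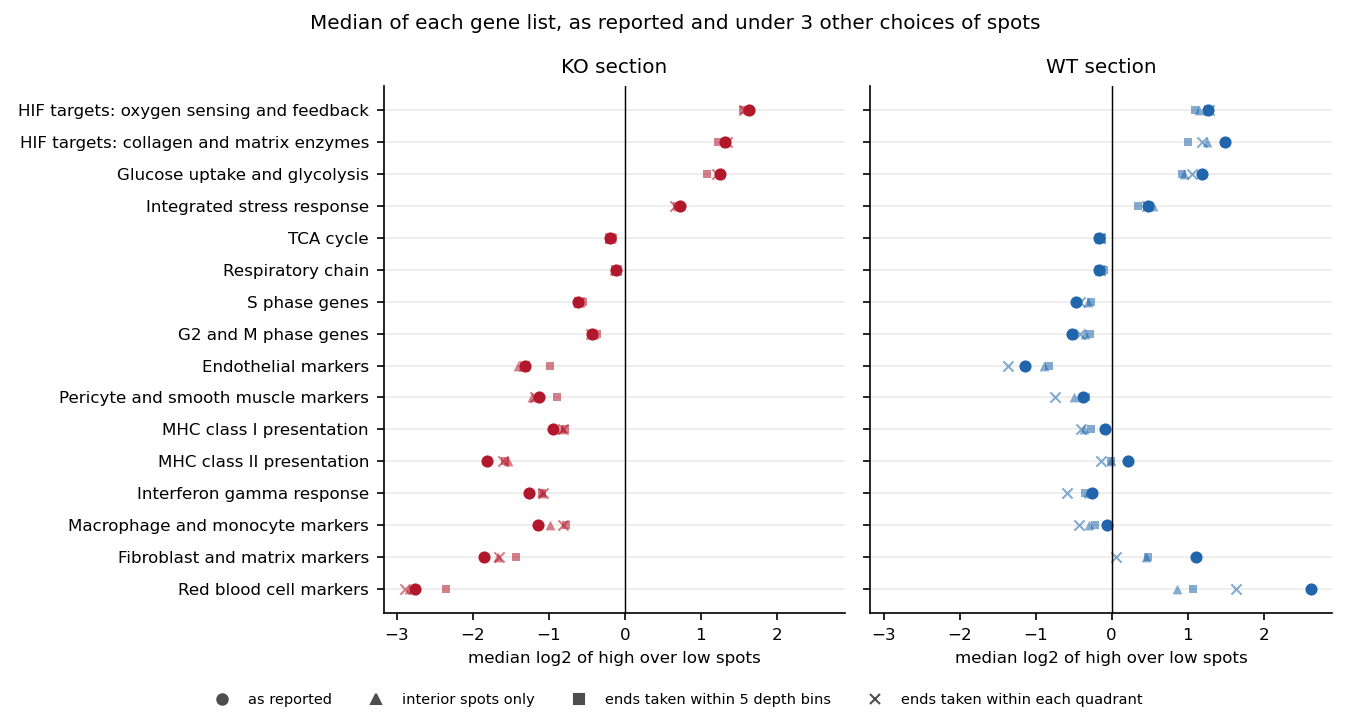
Median log2 ratio of high over low spots for 16 gene lists in the KO section (left) and the WT section (right), as reported (circles), among interior spots (triangles), with ends taken within 5 depth bins (squares) and within each quadrant (crosses). The medians of glycolysis and of both HIF target lists drawn stay between 0.93 and 1.63 under all 4 choices, endothelial medians stay below 0, and in WT the fibroblast median goes from 1.12 to 0.06 and the red blood cell median from 2.62 to 0.85 as the choice of spots changes.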

How the data were processed

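Spot transcriptomes of 2 melanoma sections were analysed. The deposited values are UMI counts per gene and spot, written by the authors' run of Space Ranger, whose version 2.1.0 stands in the file headers. The submitters' processing notes also name mm10. A deposited table of spatial autocorrelation scores (Moran's I, per the file headers) was read and is not printed. The gate took the section median over all spots. UMIs were summed over high and over low spots and divided by pool totals (6477316 and 10269028 UMIs in KO, 6304170 and 11751541 in WT) to give CPM. Ratios carry exact conditional binomial 95% intervals, and log2 ratios add 0.5 to each count. Genes needed 100 UMIs in each section; 1.5-fold was called and 1.2-fold counted as near. Quadrants needed 15 high and 15 low spots. The ranking and gate genes were left out of the counts, and some further genes are not reported here. Spots are not replicates, so no test was run. The members and lists were chosen with earlier results of these data known. Named genes are the ranking and gate genes, all HIF target and glycolysis members, the 20 most shared higher and 20 most shared lower genes, the 10 largest differences each way, and leading members of each list. Scripts were tested on simulated data. Python 3.11.15, numpy 2.4.6, scipy 1.17.1, pandas 2.3.3, R 4.3.3 and, for TMM factors only, edgeR 4.0.16 were used. Promoters come from RefSeq, GRCm38.p6.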

Additional observations from a re-analysis of the deposited data

Results flagged for a closer look

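The pooled ratios of 11 named genes and the medians of 2 lists went past 1.5-fold in opposite directions in the 2 sections. They were lower in KO high spots and higher in WT high spots. The 11 are among the 33 such genes counted above, and only named genes were flagged. With 1 section per genotype the difference was not tested. The log2 ratio of KO minus that of WT was -3.83 for Col1a1, -3.29 for Col1a2, -2.98 for Col3a1, -3.37 for Col5a2 and -3.21 for Bgn, all matrix genes. It was -4.45 for Tagln, -4.16 for Thbs1 and -3.20 for Tnc. The globin genes Hbb-bs, Hba-a2 and Hbb-bt had -5.51, -5.47 and -5.64. The median of the fibroblast list differed by -2.96 and that of the red blood cell list by -5.38. Col1a1 ranged from -0.61 to 4.26 on the log2 scale among WT quadrants.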

How the results depend on the processing

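Of the recounts of the 9 gene counts under 23 other settings, 147 stayed within 1.5 times the reported count and 60 did not; the causes were not tested. The 4 settings of deep-spot gate, depth bins, rim and same cuts were chosen after seeing the data. Depth limits low genes, and 1 section per genotype limits everything else. No paired analysis was possible because each genotype has 1 section. Settings also changed the number of genes compared, which was 9438 as reported. It was 4513 when thinned, 5162 among rim spots and 6907 with at least 400 UMIs. It was 10345 without the gate and 19458 with no minimum. The recounts were not scaled to these numbers, so a count can move without a change in share. Counts are named as KO higher, KO lower, WT higher, WT lower, shared higher, shared lower, KO special, WT special and opposite.

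With at least 400 UMIs they were 269, 287, 207, 120, 150, 71, 100, 35 and 9. With no minimum they were 5306, 2235, 4507, 2827, 2524, 646, 1184, 1203 and 1825. Thinned to 5000 UMIs they were 201, 211, 142, 79, 88, 15, 144, 53 and 6. Without the gate, KO higher was 671, KO lower 1349, WT lower 778, shared higher 372, shared lower 650 and opposite 21. Within depth bins, WT higher was 236, WT lower 113, shared lower 79, WT special 54 and opposite 8. Among interior spots, WT higher was 280, WT lower 155, shared lower 91, WT special 56 and opposite 9. Among rim spots, KO lower was 396, WT higher 260, shared higher 109 and shared lower 71. Within quadrants, WT special was 63 and opposite 6. Ranked on a random UMI split, shared lower was 89, WT special 73 and opposite 17. With the same cuts, WT lower was 676 and WT special 324. With the gate at the top 25% of the melanocytic share, WT special was 195 and opposite 18. Opposite was 21 without Bnip3 in the ranking, 16 without Car9 and 21 with ends of 10%. WT lower was 165 with ends of 25%.

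Among single genes 5683 values stayed close, 2027 moved and 18 that were past 1.5-fold changed sign, and among list medians 1306, 210 and 2; sign changes of smaller values are among those that stayed or moved. Of the 33 opposite genes 1 was so without the gate, so nearly all of the 21 counted there are others. Without the gate the KO log2 ratios were 0.20 for Col5a2, 0.37 for Thbs1, 1.47 for Tnc and 0.46 for Bgn, and the WT ones -0.092 for Cd68, -0.47 for Hbb-bs, -0.65 for Hba-a2 and -0.84 for Hbb-bt, with list medians of -0.058 for fibroblast and -0.56 for red blood cell genes. Thinned, Tnc was 0.56 in KO, and Cep72, Ybx1 and Mecom were 0.56, 0.30 and 0.48 in WT. Among rim spots Efna1 and Sp140 were 0.023 and -0.46 in KO, and Iigp1 and Psmb9 0.24 and 0.003 in WT. Iigp1 was 0.11 in WT with the gate at the top 25%, and Ybx1 0.042 in WT with the same cuts.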
